A study of Homo sapiens with 6 samples.

Results

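The receptors of the transforming growth factor β (TGFβ) superfamily were examined in RD cells after knockdown of TAK1. The 10 genes TGFBR1, ACVR1B, ACVR1, BMPR1A, TGFBR2, ACVR2A, ACVR2B, BMPR2, TGFBR3 and ENG were taken by symbol from the 58735 entries of the raw count table. Each symbol matched 1 entry, and all 10 genes passed the filter on low counts that left 15935 genes for testing. RD is an established cell line from embryonal rhabdomyosarcoma (ERMS), a tumor of muscle-like cells. Control cultures (n = 3) received lentiviral particles with scrambled shRNA, and knockdown cultures (n = 3) received particles with TAK1 shRNA, so that all 6 cultures carried a lentiviral insertion. A single TAK1 shRNA construct and a single cell line were sequenced, no rescue culture was analysed here, and the labels do not say whether the 3 cultures of a group were grown separately, so the p-values measure the spread between these samples. mRNA was counted per gene, and values are given as CPM, in which counts are scaled to a common library size after adjustment by the trimmed mean of M-values.

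Ligands of this superfamily signal through a complex of type II and type I receptors, both of them transmembrane serine/threonine kinases. The type II receptor phosphorylates the type I receptor, which then phosphorylates SMAD2 and SMAD3 (the TGFβ and activin branch) or SMAD1, SMAD5 and SMAD9 (the BMP branch). Co-receptors such as betaglycan (TGFBR3) and endoglin (ENG) bind ligand and present it to the kinases. TAK1, encoded by MAP3K7, is a kinase downstream of these receptors in the branch that does not use SMADs, and it also serves interleukin and tumor necrosis factor receptors. In skeletal muscle, myostatin acting through the activin type II receptors restrains growth, and TGFβ restrains differentiation of myoblasts.

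Expression of 5 of the 10 receptor genes fell in TAK1 knockdown RD cells, expression of 1 rose, and 4 did not pass the test. TGFBR2 and BMPR1A, the signaling type II receptor for TGFβ and a type I receptor for BMPs, fell to 49.3% and 55.6% of their control means. ACVR1B, ACVR2B and BMPR2 fell to between 71.1% and 79.7%. ACVR2A, the other activin type II receptor, was the one that rose, to 126% of control. A gene was called when the p from edgeR's quasi-likelihood test, adjusted by the Benjamini-Hochberg method, was under 0.05 and its log2 fold change was 0.25 or more in either direction. By that definition 11.3% of all tested genes were called lower and 11.8% were called higher, against 5 and 1 of the 10 receptors. The median log2 fold change was -0.27 over the receptors and 0.018 over all tested genes. The control and knockdown cultures did not overlap for 8 of the 10 receptors, and did not overlap for 43.9% of all tested genes.

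**Figure D1:**
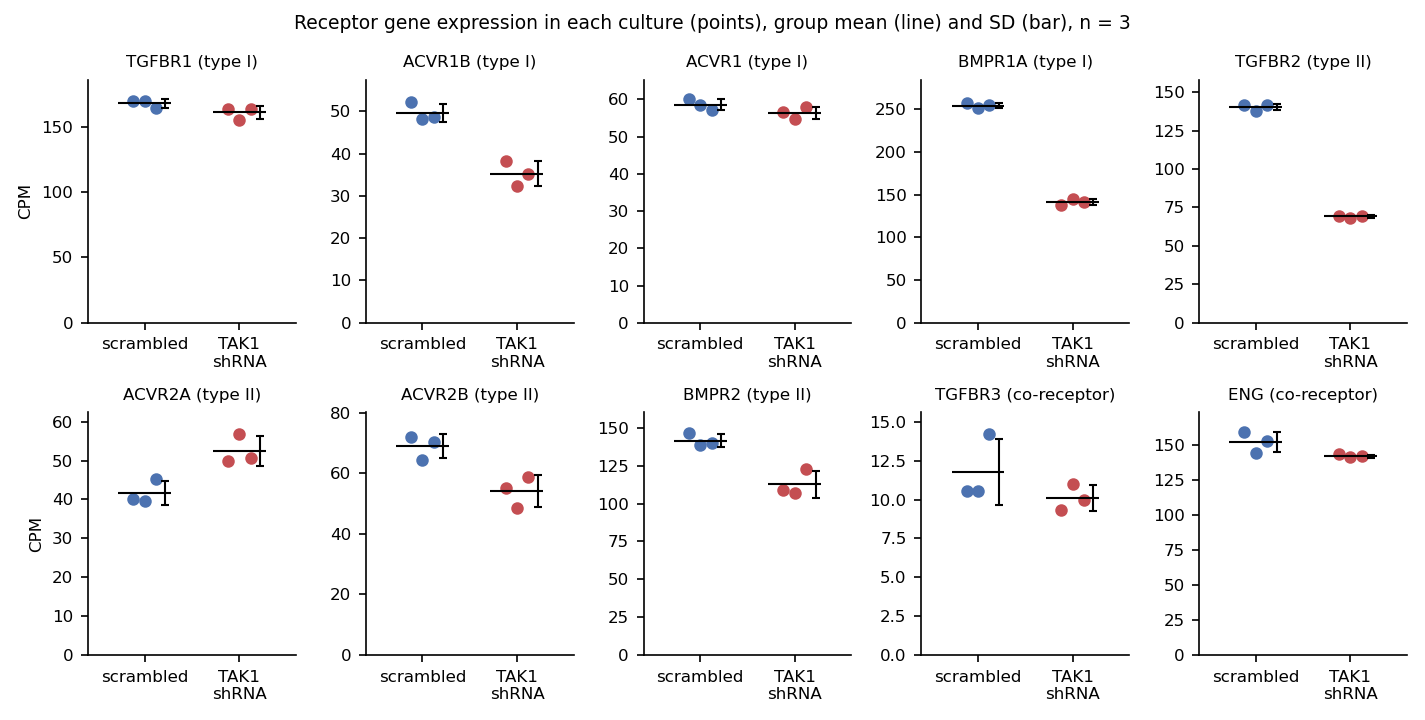
Expression of the 10 receptor genes in CPM (vertical axes, each starting at 0) in the 3 scrambled shRNA and 3 TAK1 shRNA cultures, with points for cultures, a line for the group mean and a bar for the SD. The TGFBR2 and BMPR1A points of the knockdown cultures lie far below those of the control, the ACVR2A points lie above them, and the points of ACVR1 and TGFBR3 overlap between the groups.

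The labels were first checked on the targeted gene. MAP3K7 had 76.5 to 77.9 CPM in control and 29.9 to 33.6 CPM in knockdown cultures, with no overlap. Library totals ran from 28839898 to 34469323 counts, and the receptor genes held 272 to 7913 counts per culture. Over all genes, replicates differed by more than counting error, since chi-square per degree of freedom lay between 2.88 and 8.60 for each pair within a group. The coefficient of variation between cultures of a group was 0.796% to 9.61% for the receptor genes other than TGFBR3, which reached 18.0%. As a check of the labelled cell type, 8 of 10 skeletal muscle markers were expressed above the filter, with MYOD1, MYOG, DES, PAX7, PAX3, CDH15, CHRNA1 and CHRND detected, MYF5 at 0 and MYF6 at a mean of 0.011 CPM in control. The summed level of the 10 markers was 2326 to 2344 CPM in control and 2239 to 2387 CPM in knockdown cultures. Of these markers MYOD1 (log2 fold change 0.37) and MYOG (0.27) rose and CHRNA1 (-0.40) fell. In bulk RNA a change in the share of cells that express a gene and a change in the RNA per cell cannot be told apart.

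The type II receptors, which phosphorylate the type I receptors, were taken first. Promoter windows from RefSeq (GRCh38.p14), which run from 250 bases before to 50 bases after the start site, are shown for 3 of them. TGFBR2 had the largest fall of the 10 genes, and ACVR2A and ACVR2B are close relatives that moved in opposite directions. Capitals mark matches to TGANTCA, the core of the AP-1 motif, and to GGGCGG, the core of the SP1 motif, on either strand (CCGCCC is SP1 on the opposite strand).
TGFBR2 at chr3:30606351-30606650, plus strand: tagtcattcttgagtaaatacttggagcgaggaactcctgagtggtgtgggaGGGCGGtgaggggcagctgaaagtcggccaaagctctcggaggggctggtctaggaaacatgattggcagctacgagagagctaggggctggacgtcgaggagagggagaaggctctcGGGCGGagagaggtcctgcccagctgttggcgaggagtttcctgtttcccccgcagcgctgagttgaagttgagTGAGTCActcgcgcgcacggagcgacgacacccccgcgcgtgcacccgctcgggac
ACVR2A at chr2:147844779-147845078, plus strand: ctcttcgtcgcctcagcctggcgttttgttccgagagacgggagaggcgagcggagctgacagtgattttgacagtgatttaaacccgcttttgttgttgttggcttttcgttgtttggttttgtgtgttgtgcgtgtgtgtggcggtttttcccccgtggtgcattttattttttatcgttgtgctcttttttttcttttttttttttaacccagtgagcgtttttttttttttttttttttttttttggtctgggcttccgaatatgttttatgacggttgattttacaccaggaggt
ACVR2B at chr3:38453640-38453939, plus strand: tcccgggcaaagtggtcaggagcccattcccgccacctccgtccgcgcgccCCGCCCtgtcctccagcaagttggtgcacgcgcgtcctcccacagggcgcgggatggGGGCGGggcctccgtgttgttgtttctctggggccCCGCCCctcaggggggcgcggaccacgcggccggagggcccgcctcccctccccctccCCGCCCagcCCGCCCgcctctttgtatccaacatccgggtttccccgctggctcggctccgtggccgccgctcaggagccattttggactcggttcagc
The 3 windows differ in composition. That of TGFBR2 is 61.7% G and C and holds 1 AP-1 match, TGAGTCA, which starts 6 bases before the start site, and 2 SP1 matches. The ACVR2A window is 41.3% G and C, carries long runs of T and holds neither motif. The ACVR2B window is 73.0% G and C and holds 5 SP1 matches.

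Across the 10 receptors, each taken at the RefSeq start nearest to the start of the MANE Select transcript (the reference transcript agreed between RefSeq and Ensembl), TGFBR2 was the 1 window with an AP-1 match. The same motif occurs in 7.71% of all 35116 windows of this length. SP1 matches were found in 6 of the 10 windows (TGFBR2, ACVR2B, BMPR2, ACVR1B, ACVR1 and TGFBR3), against 44.95% of all windows. The sequence CAGAC, the short SMAD binding element, occurred in 4 (TGFBR1, ACVR1, ACVR2A and BMPR2), against 45.3% of all windows. The SMAD palindrome GTCTAGAC was found in 0 of 10 and in 0.202% of all windows, TATAAA in 1 (BMPR1A) against 11.5%, and CCAAT in 3 (TGFBR1, TGFBR2 and ACVR1) against 34.6%. The RefSeq start of BMPR1A lies 856 bases from the MANE Select start, so its window covers another start site than the one annotated there, while the other 9 starts were the same. These are letter matches in a short window, and binding was not measured here.

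TGFBR2 (chromosome 3, 30606601 to 30694142, plus strand, GENCODE 44) encodes the receptor that binds TGFβ ligands and recruits TGFBR1. It was expressed at 142, 138 and 142 CPM in the 3 control cultures and at 69.7, 68.2 and 69.7 CPM in the 3 knockdown cultures. The 3 knockdown values lay close together and far below the lowest control value. The log2 fold change was -1.02 with a 95% interval from -1.12 to -0.92, the 163rd lowest of the 15935 genes tested. With any one of the 6 cultures left out, the change lay between -1.04 and -1.01.

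BMPR2 (chromosome 2, 202376327 to 202567751, plus strand) is the type II receptor dedicated to BMPs. Its expression was 146, 139 and 140 CPM in control and 109, 107 and 123 CPM in knockdown cultures. Every knockdown culture was below every control culture, and the third knockdown culture was nearest to the control. The log2 fold change was -0.33 (SE 0.054, adjusted p = 3.86e-05). The 95% interval of BMPR2 ran from -0.44 to -0.21 and does not meet that of TGFBR2, although both genes had similar CPM in control cells. Exons of BMPR2 share 57 bases, 0.456% of its exon length, with a protein-coding gene (ENSG00000289490) on the same strand.

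ACVR2A and ACVR2B encode the activin type II receptors, which also bind myostatin and some BMPs. ACVR2A (chromosome 2, 147844517 to 147930826, plus strand) was expressed at 40.2, 39.5 and 45.2 CPM in control and at 49.8, 56.9 and 50.7 CPM in knockdown cultures. ACVR2B (chromosome 3, 38453890 to 38493142, plus strand) was expressed at 72.1, 64.4 and 70.3 CPM in control and at 55.2, 48.6 and 58.9 CPM in knockdown cultures. The groups did not overlap for either gene, and the directions were opposite. ACVR2A rose with a log2 fold change of 0.33 (SE 0.069, adjusted p = 0.000457), and ACVR2B fell with a log2 fold change of -0.35 (SE 0.067, adjusted p = 0.000219). Among knockdown cultures the second had the highest ACVR2A and the lowest ACVR2B. The ratio of ACVR2A to ACVR2B per kilobase of exon was 1.36, 1.496 and 1.57 in control and 2.20, 2.85 and 2.10 in knockdown cultures. The ratios did not overlap, which follows from the separation of both genes in opposite directions. This ratio was not among those planned beforehand. For such a single value the exact permutation test (two-sided) gives p = 0.1, and a design of 3 against 3 cannot give less. That p was fixed by the separation of the 2 genes and adds nothing to it.

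The ACVR2A value holds a limit from its neighbor. Exons of ACVR2A share 431 bases, 6.68% of its exon length, with ORC4, a subunit of the origin recognition complex on the opposite strand, and 110 bases with a long noncoding RNA (ENSG00000223911). Strand use in the counting is not given in the sources used here, so reads of these stretches cannot be assigned. ORC4 itself had 52.2 to 57.6 CPM in control and 47.2 to 55.2 CPM in knockdown cultures. Its log2 fold change over the whole gene was -0.091 (adjusted p = 0.315). The part of shared reads in the ACVR2A values was not tested.

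Among the type I receptors, BMPR1A (chromosome 10, 86756596 to 86932825, plus strand) encodes a receptor for BMPs that activates SMAD1 and SMAD5. It had the highest CPM of all 10 receptor genes in control cells, at 257, 251 and 255 CPM. In knockdown cultures it reached 138, 145 and 142 CPM. The gap between the groups was many times the spread within either. The log2 fold change was -0.85 (SE 0.045, adjusted p = 3.58e-13), the 297th lowest of all genes tested. Leaving out any one culture gave -0.87 to -0.83.

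ACVR1B (chromosome 12, 51951699 to 51997078, plus strand) encodes ALK4, the type I receptor for activins and myostatin. Its values were 52.2, 48.2 and 48.6 CPM in control and 38.2, 32.4 and 35.3 CPM in knockdown cultures. The groups did not overlap, and the log2 fold change was -0.49 (SE 0.068, adjusted p = 3.18e-06). Of the 10 genes it had the third largest fall, after TGFBR2 and BMPR1A.

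TGFBR1 (chromosome 9, 99104038 to 99154192, plus strand) encodes ALK5, the type I partner of TGFBR2. It was expressed at 170, 170 and 164 CPM in control and at 163.7, 155 and 163.7 CPM in knockdown cultures. The lowest control culture was above the highest knockdown culture by under 1 CPM. The log2 fold change was -0.062 with a 95% interval from -0.16 to 0.034 (adjusted p = 0.340), an interval that lies inside the fold threshold of 0.25 on both sides. Of the 2 kinases of the TGFβ receptor, the gene of one fell and the difference in the gene of the other did not pass the test. Per kilobase of exon, the ratio of TGFBR2 to TGFBR1 was 0.973, 0.947 and 1.01 in control and 0.497, 0.513 and 0.497 in knockdown cultures. The ratios did not overlap between the groups.

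ACVR1 (chromosome 2, 157736251 to 157876330, minus strand) encodes ALK2, a type I receptor that acts with BMPR2 and the activin type II receptors and activates SMAD1 and SMAD5. Its values were 60.1, 58.4 and 57.2 CPM in control and 56.6, 54.8 and 57.9 CPM in knockdown cultures. The groups overlapped, since the third knockdown culture was above the third control culture. The log2 fold change was -0.054 with an interval from -0.17 to 0.063 (adjusted p = 0.511). BMPR1A and ACVR1 both belong to the BMP branch, and the ratio of BMPR1A to ACVR1 per kilobase of exon was 4.17 to 4.35 in control and 2.37 to 2.59 in knockdown cultures. It was not among the ratios planned beforehand.

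**Figure D2:**
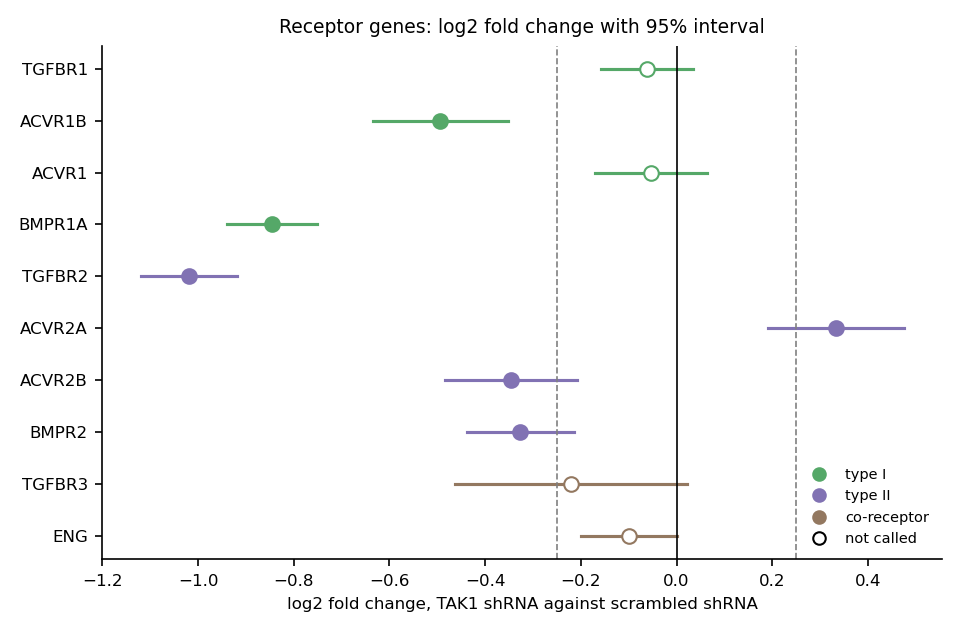
Log2 fold change of each receptor gene (horizontal axis, TAK1 shRNA against scrambled shRNA, n = 3 each) with its 95% interval as a line, colored by receptor class and open where the gene was not called. The dashed lines mark the fold threshold of 0.25 on either side of 0. The intervals of TGFBR2, BMPR1A and ACVR1B lie wholly below the lower dashed line, that of ACVR2A lies above 0, and those of TGFBR1 and ACVR1 lie between the dashed lines.

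The co-receptors ENG and TGFBR3 lack kinase activity and did not pass the test. ENG (chromosome 9, 127815013 to 127854658, minus strand), known mostly from endothelial cells, was expressed at 159, 144 and 152 CPM in control and at 143, 141 and 142 CPM in knockdown cultures. Its groups did not overlap, but the second control culture was close to the knockdown values, and the log2 fold change was -0.099 (interval -0.20 to 0.0011, adjusted p = 0.125). Because ENG is an endothelial gene, 10 endothelial markers were read beside it. Among them CDH5, KDR and ERG were at 0 in all 6 cultures, and PECAM1 and VWF had means of 0.101 and 0 CPM in control. Of the 4 markers tested, CLDN5, a tight junction protein, rose from 5.86 to 18.6 CPM (log2 fold change 1.67), and TEK, TIE1 and ESAM had log2 fold changes of -0.49, -0.59 and -0.45 with adjusted p-values of 0.0757 or more. The summed level of the 10 markers was 10.1 to 11.4 CPM in control and 19.8 to 24.1 CPM in knockdown cultures. That rise rested on CLDN5, since the other 9 markers summed to 4.41 to 5.65 CPM in control and 3.08 to 3.85 CPM in knockdown cultures. The part of these genes in the ENG values was not tested. Exons of ENG share 313 bases, 8.15% of its exon length, with a long noncoding RNA (ENSG00000225032) on the opposite strand.

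TGFBR3 (chromosome 1, 91680343 to 91906335, minus strand) encodes betaglycan, which presents TGFβ2 and inhibin. It was the lowest of the 10 genes, at 10.5, 10.6 and 14.2 CPM in control and 9.30, 10.98 and 9.97 CPM in knockdown cultures. The groups overlapped, and the third control culture stood above the other 5. The log2 fold change was -0.22 with an interval from -0.46 to 0.022 (adjusted p = 0.161), and it was -0.063 without that culture. With 272 to 438 counts per culture, the interval holds both 0 and falls of the size seen for BMPR2 and ACVR2B.

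Levels of different genes were compared per kilobase of annotated exon (the union of all GENCODE 44 exons of a gene). In control cells the order was ENG (39.6 CPM per kilobase), BMPR1A (25.2), TGFBR1 (21.0), TGFBR2 (20.5), BMPR2 (11.3), ACVR1B (8.78), ACVR2A (6.46), ACVR1 (5.95), ACVR2B (4.39) and TGFBR3 (1.37). The neighbors TGFBR1 and TGFBR2 overlapped between cultures, and all other neighbors in this order were separate in all 3 cultures. In knockdown cells the order was ENG (36.9), TGFBR1 (20.1), BMPR1A (14.05), TGFBR2 (10.1), BMPR2 (9.03), ACVR2A (8.14), ACVR1B (6.24), ACVR1 (5.73), ACVR2B (3.45) and TGFBR3 (1.18). TGFBR1 thus passed BMPR1A, and ACVR2A passed ACVR1B. The ranges of BMPR2 and ACVR2A overlapped in knockdown cells, as did those of ACVR1B and ACVR1. ENG was the highest, TGFBR3 the lowest and ACVR2B the second lowest in both groups whether the union of exons, the longest transcript or the MANE Select transcript gave the length. The middle of the order depended on that choice. With MANE Select lengths ACVR1, whose union of exons is 9842 bases and whose MANE Select transcript is 3332 bases, stood above BMPR2 in control cells at 17.6 CPM per kilobase, and TGFBR2 stood above TGFBR1 (31.0 against 25.8).

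**Figure D3:**
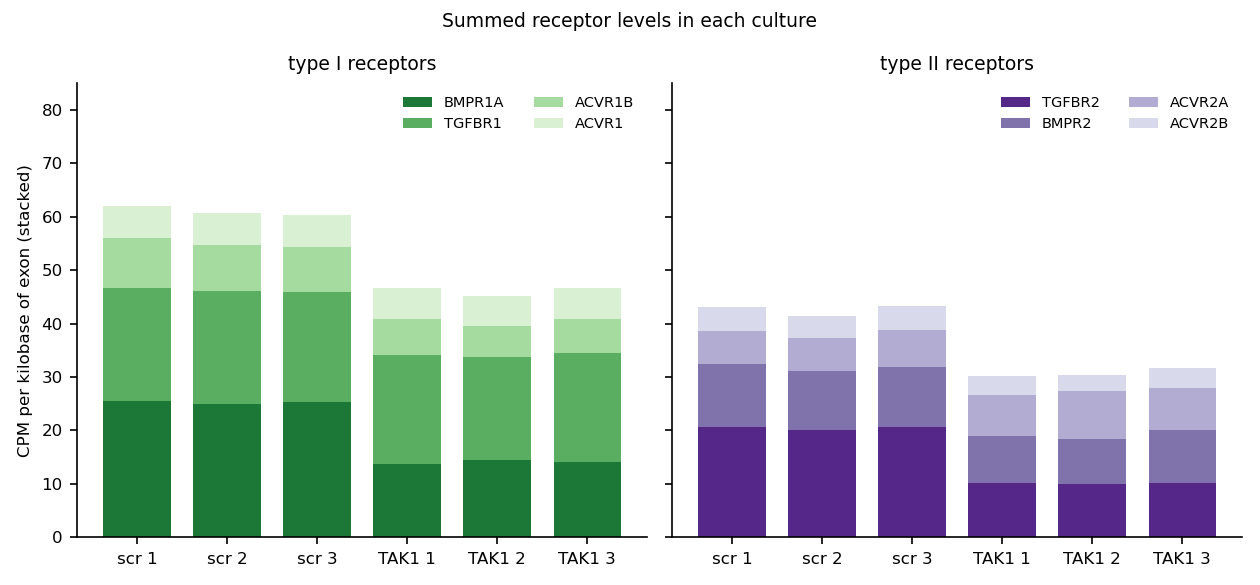
Stacked levels (CPM per kilobase of exon, union of exons) of the 4 type I receptors (left) and 4 type II receptors (right) in each control (scr) and knockdown (TAK1) culture. The columns of the knockdown cultures are lower in both panels, with the TGFBR2 and BMPR1A segments shortened most and the ACVR2A segment lengthened.

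Summed over the 4 type I receptors, the level was 60.2 to 62.1 CPM per kilobase in control and 45.1 to 46.7 CPM per kilobase in knockdown cells. Summed over the 4 type II receptors, it was 41.4 to 43.3 and 30.1 to 31.6 CPM per kilobase. Both sums were lower in each knockdown culture than in each control culture. TGFBR2 made up 48.0% ± 0.464 (SD, n = 3) of the type II level in control and 32.9% ± 0.816 in knockdown cells. ACVR2A went from 15.1% ± 0.928 to 26.5% ± 2.21. The shares of BMPR2 (26.5% ± 0.683 and 29.4% ± 1.57) and ACVR2B (10.3% ± 0.369 and 11.2% ± 0.919) were close, with overlapping cultures for ACVR2B. Among the type I receptors, BMPR1A went from 41.4% ± 0.512 to 30.5% ± 1.36 and TGFBR1 from 34.4% ± 0.520 to 43.6% ± 0.522. ACVR1 went from 9.76% ± 0.0962 to 12.4% ± 0.154. ACVR1B, at 14.4% ± 0.421 and 13.5% ± 0.892, overlapped between the groups. The share of TGFBR1 was higher in each knockdown culture than in any control culture, while its own mean level was 95.8% of control. With MANE Select lengths, a setting added after the data were seen, TGFBR2 made up 54.8% and 38.9% of the type II level. Type I or type II receptors at the cell surface were not measured here.

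Other receptors and co-receptors of the family were read from a list of 16 genes, of which 10 passed the filter. Of these, 1 rose and 2 fell, with a median log2 fold change of -0.21. These are 10% and 20% of the genes tested in the list, against 11.8% and 11.3% called higher and lower over all tested genes. NRP2, a neuropilin that binds semaphorins and TGFβ, fell from 18.4 ± 0.749 to 9.80 ± 1.45 CPM (log2 fold change -0.91), and VASN, a TGFβ trap, fell from 24.4 ± 1.34 to 19.7 ± 1.29 CPM (-0.31). TGFBR3L, a relative of betaglycan, rose from 7.11 ± 1.12 to 9.67 ± 1.64 CPM (0.44, adjusted p = 0.0131), a call that was lost without the third control or the first knockdown culture. The type I receptors ACVRL1 and ACVR1C were low, at 6.20 and 1.26 CPM in control, with log2 fold changes of 0.0023 and -0.79 that did not pass the test (adjusted p = 0.992 and 0.0742). RGMA, RGMB and HJV, the BMP co-receptors of the repulsive guidance family, had log2 fold changes of 0.048, -0.15 and -0.27, and NRP1 and CD109 had -0.30 and 0.36, none of which passed. BMPR1B, AMHR2, BAMBI, TDGF1 and LRG1 had at most 0.163 CPM on average in either group and CFC1 was at 0 in all cultures.

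Regulators of the receptors, a list of genes for receptor inhibition, traffic and turnover, included 4 that rose and 3 that fell among 33 tested (median -0.026). These are 12.1% and 9.09%, near the 11.8% and 11.3% called higher and lower over all tested genes. FKBP1A, which encodes FKBP12, a protein that binds type I receptors and keeps them inactive, fell from 189 ± 4.35 to 86.9 ± 2.81 CPM (log2 fold change -1.12, adjusted p = 7.57e-15). UCHL5, a deubiquitinase that acts on TGFBR1, fell by 0.36 on the log2 scale. DYNLRB1, a dynein light chain that interacts with TGFβ receptors, rose from 42.4 ± 2.15 to 82.0 ± 7.87 CPM (0.95), and PMEPA1, an inhibitor of SMAD activation, rose by 0.33. The fall of FKBP1A was close in size to that of TGFBR2.

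The SMADs, which the type I receptors phosphorylate, or which inhibit that step, were all tested. Of the 8, 3 fell and 0 rose (median -0.17), and all 3 belong to the BMP branch. In this short list that is 37.5% lower and 0% higher, against 11.3% and 11.8% over all tested genes. Also at an unadjusted p under 0.05, and with DESeq2 or limma voom, 0 were higher. SMAD1 fell from 64.1 ± 1.44 to 51.9 ± 0.829 CPM (log2 fold change -0.30), SMAD5 from 79.9 ± 1.39 to 61.1 ± 3.42 CPM (-0.39) and SMAD6, an inhibitory SMAD, from 24.9 ± 0.747 to 16.8 ± 1.54 CPM (-0.57). SMAD2 had an adjusted p of 0.0129 with a log2 fold change of -0.18, under the fold threshold. SMAD3 (0.074), SMAD4 (-0.17), SMAD7 (0.29) and SMAD9 (-0.11) had adjusted p-values of 0.0820 or more. Of the 13 genes of the TAK1 branch, which couples receptors to JNK, p38 and NF-kB, 2 rose and 2 fell (median 0.0071). Each is 15.4% of the list, against 11.8% called higher and 11.3% called lower over all tested genes. The 2 that fell include MAP3K7, whose fall was set by the shRNA and is no result about the branch. Besides MAP3K7, TRAF4 fell (-0.65), and the kinases MAP2K7 (0.39) and MAP2K4 (0.28) rose.

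Ligands moved the other way in the genes that were called. Of 32 ligand genes 14 were tested, and by edgeR 4 rose, 0 fell and 10 were not called (median 0.20). That is 28.6% higher and 0% lower, against 11.8% and 11.3% over all tested genes. DESeq2 called 3 higher and limma voom 4, and both called 0 lower. With each culture left out in turn, 3 to 4 were called higher. In edgeR 2 ligands had a negative change at an unadjusted p under 0.05. Among these 2 was TGFB1, at 121 ± 7.30 CPM in control and 109 ± 7.14 CPM in knockdown cultures. The log2 fold change of TGFB1 was -0.15 (adjusted p = 0.0397), under the fold threshold, and its groups overlapped. MSTN, which encodes myostatin, was the most abundant of those that rose, from 1398 ± 105 to 1774 ± 187 CPM (log2 fold change 0.34). GDF11, its nearest relative, rose from 61.9 ± 0.776 to 82.1 ± 1.59 CPM (0.41). TGFB3 rose from 35.2 ± 1.57 to 44.7 ± 2.14 CPM (0.35) and BMP4 from 10.3 ± 0.690 to 12.4 ± 0.399 CPM (0.26, adjusted p = 0.0442). Myostatin and GDF11 bind ACVR2A and ACVR2B, whose own changes were opposite.

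Genes that SMADs are known to act on were read last. Of 21 SMAD2/3 target genes 11 fell and 3 rose (median -0.31). That is 52.4% lower and 14.3% higher, against 11.3% and 11.8% over all tested genes. The 3 that rose were TAGLN (log2 fold change 0.75, at 2.00 CPM in control), BHLHE40 (0.37) and PMEPA1 (0.33). CTGF fell by 0.79, CDKN2B by 0.84 and PDGFB, which is low at 2.81 CPM in control, by 1.61 on the log2 scale. Of 14 SMAD1/5 target genes tested 7 fell and 2 rose (median -0.40), which is 50% lower and 14.3% higher. GATA2 (0.50) and ATOH8 (0.49) were the 2 that rose. The falls included ID2 (-0.99), RUNX2 (-0.79), NOG (-0.78) and MSX2 (-0.74). ID2 is low, at 2.98 CPM in control. The lists share genes. SMAD6 and SMAD9 stand among the SMAD1/5 targets and the SMADs, and SMAD7 among the SMADs and in both target lists. PMEPA1 stands among the SMAD2/3 targets and the regulators, and COL1A1 among the SMAD2/3 targets and the fibroblast markers. BAMBI, which was not tested, stands among the SMAD1/5 targets and the other receptors. Both target lists were written from general knowledge with earlier results of these data known, so their direction is a description.

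**Figure D4:**
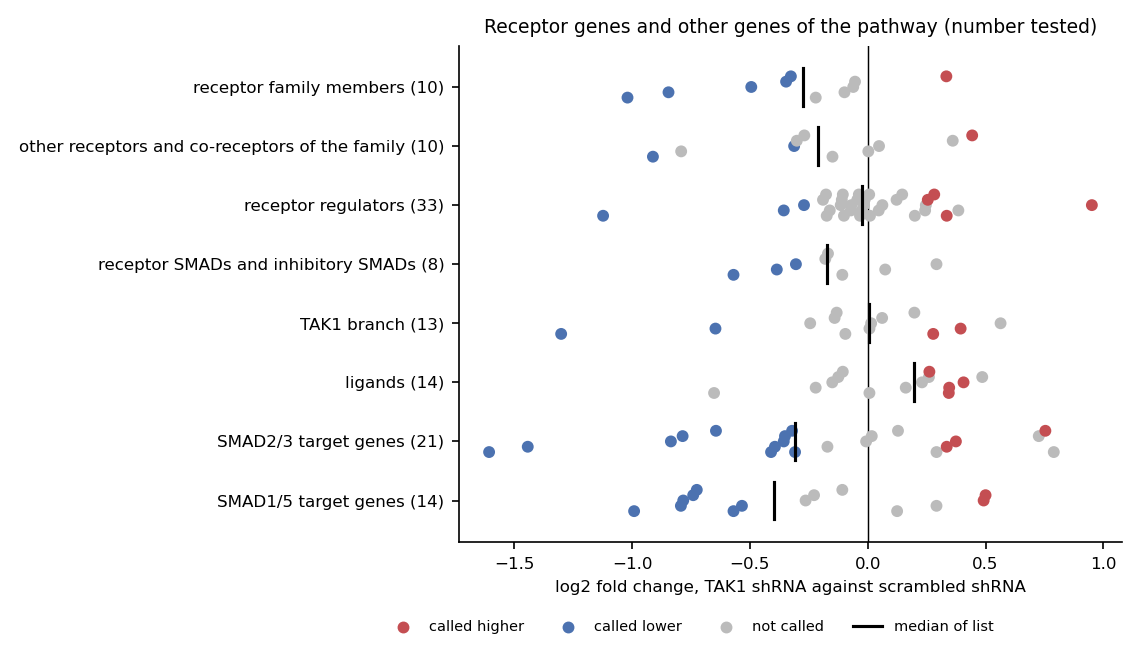
Log2 fold change (horizontal axis, TAK1 shRNA against scrambled shRNA, n = 3 each) of each tested gene of the receptor family and of 7 lists of the pathway, with the number tested in brackets, colored by call and with a black line at each list's median. The medians of the receptor genes and of both target lists lie left of 0, and that of the ligands lies right of 0.

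The remaining marker lists set the context of cell type. None of 8 epithelial markers passed the filter (EPCAM, CDH1, KRT5, KRT14, KRT19, ESRP1, GRHL2 and CLDN4), with a summed level of at most 0.636 CPM. The leukocyte markers summed to at most 1.49 CPM, and CSF1R, the 1 tested, had an adjusted p of 0.667. Of 6 fibroblast markers tested COL3A1 rose (log2 fold change 0.32), and PDGFRA, DCN, LUM, THY1 and COL1A1 did not pass the test. The summed fibroblast level, mostly COL3A1, was 6646 to 6958 CPM in control and 7976 to 8721 CPM in knockdown cultures, while FAP was at 0 in control cultures and DPT at 0 in all 6. The part of these genes in the receptor values was not tested.

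**Figure D5:**
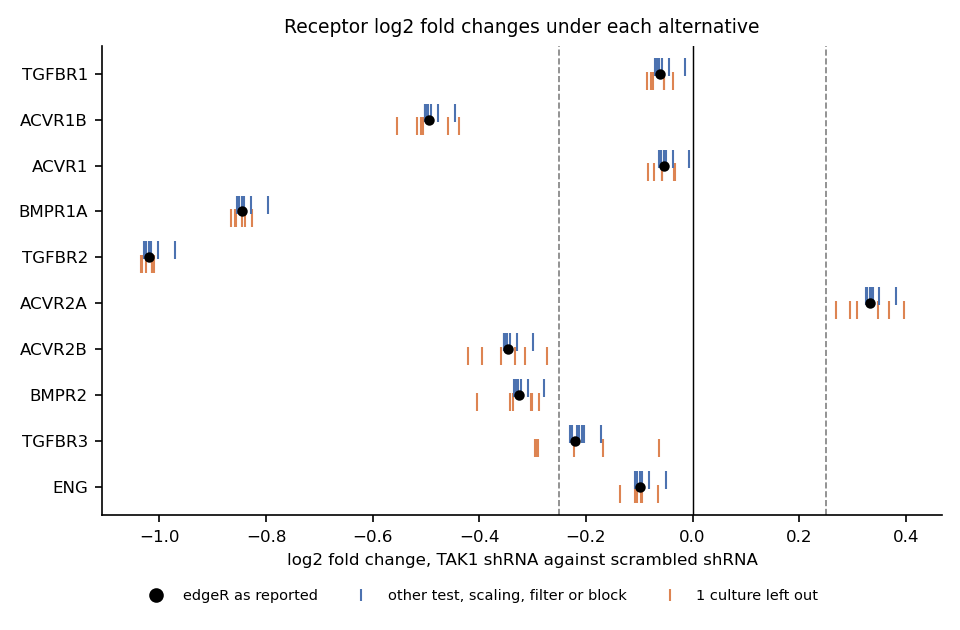
Log2 fold change of each receptor gene (horizontal axis, TAK1 shRNA against scrambled shRNA) as reported (black points), with another test, scaling, filter or the replicate block (blue ticks) and with 1 culture left out (orange ticks). The dashed lines mark the fold threshold of 0.25. No tick lies on the other side of 0 from its point, and TGFBR3 has the widest spread, from -0.29 to -0.063.

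The direction of all 10 genes was the same under each test, scaling, filter and left-out culture that was run. Scaling by library size alone moved every gene upward, with TGFBR2 at -0.97, BMPR2 at -0.28 and ACVR2A at 0.38. Over all genes that scaling made 62.9% of the calls upward, against 51.0% as reported, and the receptor calls were 5 lower and 1 higher with both. At a fold threshold of 0.5 TGFBR2 and BMPR1A alone were called among the receptors.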

How the data were processed

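Poly(A)-enriched RNA from 6 RD cultures was sequenced, and the authors deposited raw counts of reads per gene without normalization. Per the paper's methods and the submitters' processing notes, base calling used CASAVA and reads were filtered and aligned to GRCh38 with STAR. The counting program, annotation release and strand use are not given in the sources used here.

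Counts were compared with edgeR 4.0.16 in R 4.3.3 (default expression filter, TMM scaling, quasi-likelihood test, p-values adjusted over 15935 genes by Benjamini-Hochberg, 2 groups of 3 with no replicate term). Standard errors (SE) were obtained from the fold change and its F statistic, and intervals are 95%. CPM were computed from the same library sizes. At 28839898 to 34469323 counts per sample, the coefficient of variation between replicates was above counting error in both groups for 7 of the 10 receptors, and at or below it in 1 group for TGFBR2, BMPR1A and ENG. Exon lengths and overlaps came from GENCODE 44, and promoters from RefSeq. The tests were checked on simulated data.

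Same-numbered control and knockdown samples deviated together from their group means (r = 0.337, 0.161 and 0.120), so a replicate block was fitted as an alternative, although the third control sample correlated more with the second knockdown sample (0.239). DESeq2 1.42.0, limma 3.58.1 (voom), 3 other scalings, 2 filters, 2 fold thresholds, other gene lengths and leaving out each sample were the other alternatives.

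The receptors and all gene lists were chosen with earlier results of these data known. Genes named are the receptors, MAP3K7, all genes of lists with at most 12 tested genes, the 4 called genes with the largest absolute change in longer lists, and genes whose exons overlap a receptor. The ligand TGFB1, under the fold threshold, and the SMAD target genes called higher are named besides. Protein sequences were not used here. The values of 1 gene that this rule names are not reported here.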

Additional observations from a re-analysis of the deposited data

How the results depend on the processing

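No receptor changed direction, and TGFBR1, ACVR1, TGFBR3 and ENG were called under none of the 16 alternatives. A fold threshold of 0.5 changed the most. It left 735 genes called higher and 680 called lower, 0 receptors higher and 2 lower, and 0 other receptors higher and 1 lower. It left 1 receptor regulator higher and 1 lower, 1 SMAD lower, 0 genes of the TAK1 branch higher, 0 ligands higher, 1 SMAD2/3 target higher and 5 lower, and 0 SMAD1/5 targets higher. With no fold threshold 2734 genes were called lower, 7 regulators were higher and 7 lower, 4 TAK1 branch genes were lower and 1 ligand was lower. With each culture left out in turn, 0 to 1 other receptors were higher (0 without the third control or the first knockdown culture), 2 to 6 regulators were higher (2 without the third control culture) and 1 to 3 TAK1 branch genes were higher (1 without the third knockdown culture). The replicate block gave 1942 genes higher and 1848 lower, changed no receptor call and moved the TAK1 branch genes called higher from 2 to 3. TGFBR2's share of the type II level in control was 48.7% with the longest transcript and 54.8% with MANE Select, and 38.9% in knockdown cells with MANE Select. BMPR1A's share of the type I level in control was 44.2% and 42.2% with these lengths, and 32.8% in knockdown cells with the longest transcript. The adjusted p over the alternatives ran from 1.60e-05 to 0.00837 for ACVR2A and from 2.13e-07 to 0.00280 for ACVR2B. TGFBR3, with the fewest counts, had a counting error of 5.30% in control against a spread of 18.0% between cultures. The changes between gene lengths come from the lengths used.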
